A study of Mus musculus with 9 samples.

Results

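A set of 10 genes was followed from the entry of fatty acids into the cell to their oxidation in mitochondria. The set was given by gene name as the rows Cd36, Fabp3, Fabp4, Fabp5, Lpl, Cpt1a, Acadl, Hadha, Acsl1 and Pparg of the deposited count table, 10 of its 49510 genes. All 10 passed the filter on low counts. In libraries of heart regulatory T cells (Tregs), Cd36, Fabp3 and Fabp4 of the 5 genes of uptake and binding rose against the mediastinal lymph node (MLN), and Fabp3 also against the spleen. The other genes of this kind, Lpl and Fabp5, passed in no comparison by the main test. The genes of activation and oxidation, Acsl1, Cpt1a, Acadl and Hadha, did not pass the test in any comparison, and their 95% intervals for heart against either lymphoid organ stayed within −1.728 and 1.982 on the log2 scale. The calls of Cd36, Fabp3 and Fabp4 all ended when heart library 3 was left out. Heart libraries also held more marker transcripts of several other cell types, whose part in these levels was not tested.

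Tregs restrain other immune cells and depend on the transcription factor Foxp3. All 3 groups came from mice of the strain Foxp3-GFP, which carry a green fluorescent reporter of Foxp3, aged 8 weeks and taken 3 days after ischemia/reperfusion (I/R) injury of the heart, a block of its blood flow followed by reflow. The groups were Tregs of the injured heart, of the spleen and of the MLN, which drains the heart, with 3 libraries each, and no uninjured group was analysed here. Cells were purified first on magnetic beads and then by fluorescence, and a SMARTer low-input kit turned the RNA into libraries. Whether 3 libraries of an organ stand for 3 animals, pools or repeat preparations is not stated in the labels, so p-values reflect the spread between samples alone, which may be technical.

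Each library held 156194012 to 267520538 counts, and 14562 to 18570 genes had at least 1 count. Levels below are in CPM, each count as a share of its library's scaled total, as mean ± SD over 3 libraries. Foxp3 itself was at 31.2, 32.6 and 187.3 CPM in spleen 1, 2 and 3, at 42.4, 41.8 and 46.3 CPM in MLN 1, 2 and 3, and at 8.77, 38.0 and 0.24 CPM in heart 1, 2 and 3. The library heart 3 thus had little of the gene that defines its label, so the calls of fatty acid genes below are also given without it. Without heart 3, edgeR called 0 of all genes tested in either heart comparison, so the marker calls below end too. Scaling factors were highest for spleen 3 (1.24), MLN 3 (1.17) and heart 2 (1.11) of each organ, and "2 libraries an organ" below means the fit without these 3. Tests are edgeR quasi-likelihood tests with Benjamini-Hochberg adjustment over 16609 genes, two-sided, and a gene was called changed at an adjusted p below 0.05. The heart comparisons share the 3 heart libraries.

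Long-chain fatty acids reach cells from lipoproteins, which lipoprotein lipase (Lpl) cleaves at the vessel wall, and enter with the help of the scavenger receptor Cd36. Inside, fatty acid binding proteins (Fabp3, Fabp4, Fabp5) carry them, acyl-CoA synthetases such as Acsl1 activate them, Cpt1a makes the carnitine esters that enter mitochondria, and Acadl and Hadha carry out steps of β-oxidation. Pparg is a nuclear receptor for lipid ligands that switches on many of these genes in fat cells, macrophages and the Tregs of visceral fat. In the heart these genes are best known from muscle, which lives largely on fatty acids, and from its capillaries.

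The start regions of the genes are shown because the nuclear receptors of the PPAR family bind a repeat of the half-site AGGTCA. Cd36, Fabp3 and Fabp4 were called in a heart comparison by the main test, and the other genes in none. This is not a clean split, since Lpl and Pparg also lay above every lymphoid library in the heart. RefSeq start regions (GRCm38.p6), from 250 bases before to 50 bases after a start, were found for 7 of the 10 genes, 10 regions in all, and Fabp4, Fabp5 and Lpl were not matched. Cd36 and Fabp3 of the called genes and Cpt1a and Acadl of the others are printed, 5′ to 3′ on the gene's own strand. The half-site is in capitals on whichever strand it lies (TGACCT is its reverse complement). Cd36 is read from chr5:17835847-17836146 on the minus strand, Fabp3 from chr4:130308488-130308787 on the plus strand, Cpt1a from chr19:3323051-3323350 on the plus strand and Acadl from chr1:66863260-66863559 on the minus strand.
Cd36: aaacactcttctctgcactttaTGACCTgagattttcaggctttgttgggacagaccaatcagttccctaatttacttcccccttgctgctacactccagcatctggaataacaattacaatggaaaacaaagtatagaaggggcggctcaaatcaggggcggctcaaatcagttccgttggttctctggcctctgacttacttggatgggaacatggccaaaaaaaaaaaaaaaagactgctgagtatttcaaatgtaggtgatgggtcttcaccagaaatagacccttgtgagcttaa
Fabp3: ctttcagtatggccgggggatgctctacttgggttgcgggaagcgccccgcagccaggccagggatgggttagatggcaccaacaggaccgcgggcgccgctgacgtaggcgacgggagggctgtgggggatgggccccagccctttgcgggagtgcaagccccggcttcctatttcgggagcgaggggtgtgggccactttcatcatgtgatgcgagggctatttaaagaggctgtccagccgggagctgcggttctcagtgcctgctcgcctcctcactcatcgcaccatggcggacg
Cpt1a: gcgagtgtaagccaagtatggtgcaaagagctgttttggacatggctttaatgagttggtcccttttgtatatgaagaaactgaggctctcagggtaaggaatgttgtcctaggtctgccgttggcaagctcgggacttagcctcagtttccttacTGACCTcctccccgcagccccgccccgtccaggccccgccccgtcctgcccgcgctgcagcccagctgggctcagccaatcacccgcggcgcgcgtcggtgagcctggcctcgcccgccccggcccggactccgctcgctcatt
Acadl: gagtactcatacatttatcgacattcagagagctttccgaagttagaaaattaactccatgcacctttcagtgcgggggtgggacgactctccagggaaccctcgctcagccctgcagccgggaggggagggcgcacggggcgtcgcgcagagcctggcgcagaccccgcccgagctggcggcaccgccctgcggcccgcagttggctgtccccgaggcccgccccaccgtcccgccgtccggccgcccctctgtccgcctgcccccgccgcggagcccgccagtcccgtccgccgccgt

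The half-site began 228 bases before the start read for Cd36 and 94 bases before that of Cpt1a. The Cd36 start lies inside the annotated gene, which on the minus strand begins at 17888801, and no region at that end was read. Fabp3 and Acadl had none in this window. Of the 3 Pparg starts, the first had a half-site 28 bases and the second 9 bases before the start, so 4 of 10 regions and 3 of 7 genes held it. The same letters on either strand occurred in 16.26% of 32851 RefSeq start regions of 300 bases. The full repeat of half-sites with 1 base between (AGGTCANAGGTCA), searched on both strands, occurred in 0.03957% of them and in none of the 10. The Cd36 region was poor in CpG, with 3 CpG and 43.0% GC, against 22 CpG and 65.0% for Fabp3, 22 and 62.33% for Cpt1a and 34 and 70.33% for Acadl. The median over all start regions was 7 CpG and 52.67% GC. A match of letters describes the sequence and is not evidence of binding.

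**Figure D1:**
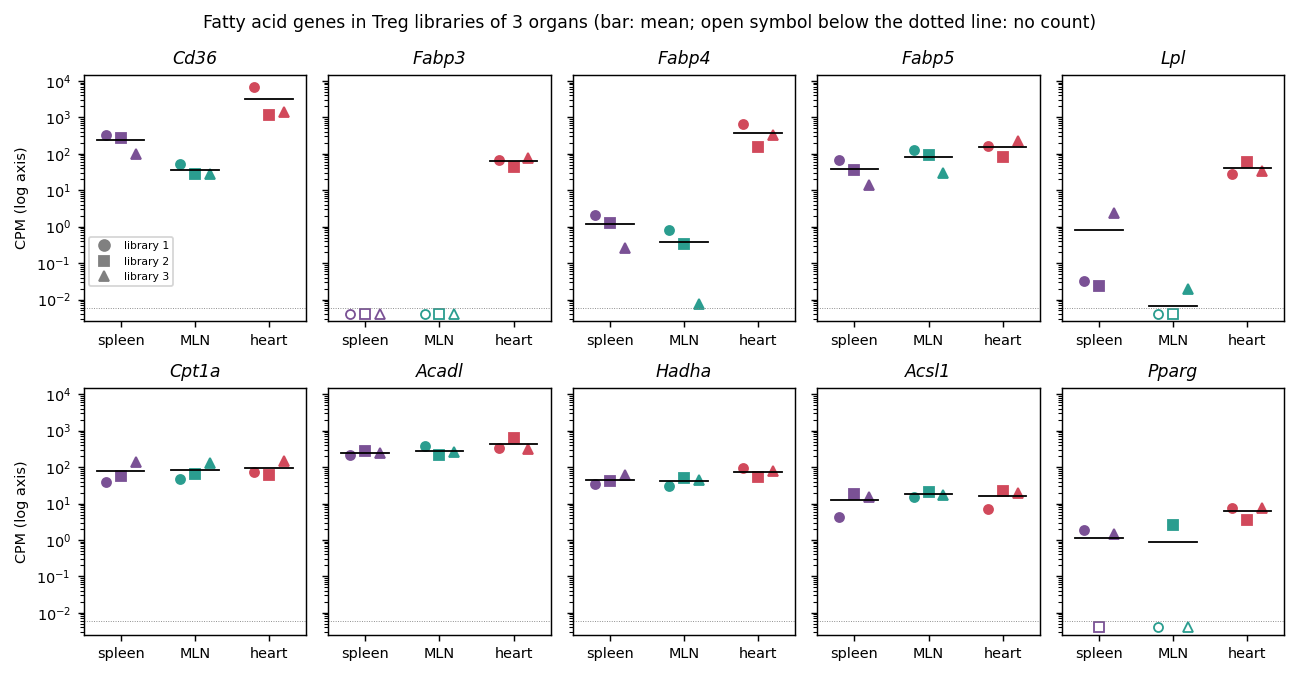
Level of each of the 10 genes in the 9 libraries, with CPM on a log axis 1 point per library, a bar at the mean of each organ, and open symbols below the dotted line for libraries with no count. Heart points of Cd36, Fabp3, Fabp4, Lpl and Pparg lie above every spleen and MLN point, while those of Cpt1a and Acsl1 overlap both organs.

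Cd36 (ENSMUSG00000002944, chromosome 5, 17781690 to 17888801, minus strand, mm10), the fatty acid and lipoprotein receptor of macrophages, platelets, capillaries and muscle, was at 6954, 1152 and 1421 CPM in heart 1, 2 and 3. It was at 332.5, 279.3 and 101.0 CPM in spleen 1, 2 and 3, and at 52.3, 27.7 and 28.0 CPM in MLN 1, 2 and 3. The organs did not overlap in any pair, with the heart highest and the MLN lowest, and heart 1 stood far above the other heart libraries. Cd36 rose 88.3-fold from the MLN, from 35.97 ± 14.11 to 3176 ± 3275 CPM (log2 6.46, SE 0.95, 95% interval 4.298 to 8.63, edgeR adjusted p = 0.0283). Without heart 1 that difference was 5.16 on the log2 scale (edgeR adjusted p = 0.0423), and without heart 3 it was 6.81 and no longer called (0.0697). The call also ended without MLN 1, 2 or 3 (adjusted p = 0.0852, 0.103 and 0.0895, edgeR) and with 2 libraries an organ (0.122). Against the spleen, at 237.6 ± 121.2 CPM, the log2 difference was 3.74 (SE 0.83, interval 1.837 to 5.644) and did not pass (edgeR adjusted p = 0.0774), although DESeq2 called it (8.6e-05). Between the lymphoid organs Cd36 differed by −2.72 (SE 0.80, MLN minus spleen), which did not pass in edgeR (adjusted p = 0.839) and did in DESeq2 (0.0214).

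Lpl (ENSMUSG00000015568, chromosome 8, 68880491 to 68907448, plus strand), which releases fatty acids from triglyceride-rich lipoproteins and is made by muscle, fat cells and macrophages, was at 28.5, 61.2 and 33.2 CPM in heart 1, 2 and 3. In spleen 1, 2 and 3 it had 5, 5 and 697 counts (0.032, 0.024 and 2.409 CPM), and in MLN 1, 2 and 3 it had 0, 0 and 5 counts. Every heart library was above every lymphoid library, and spleen 3 alone held nearly all spleen counts. The log2 difference from the MLN was 12.46 (SE 2.79, interval 6.089 to 18.834) and missed the threshold (edgeR adjusted p = 0.0706). It passed without spleen 3 (0.0322), with both organs fitted alone (0.0271) and with DESeq2 (9.8e-10). The heart to spleen difference of 5.64 (SE 2.11, interval 0.829 to 10.445) did not pass (edgeR adjusted p = 0.278; 0.015 with DESeq2) and came to 10.5 without spleen 3. MLN libraries lay below all spleen libraries, with DESeq2 calling the difference (0.00602) and edgeR not (adjusted p = 0.839).

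Fabp3 (ENSMUSG00000028773, chromosome 4, 130308595 to 130315463, plus strand), the binding protein of heart and skeletal muscle, had no count in any of the 6 lymphoid libraries. Heart 1, 2 and 3 had 12000, 10964 and 17161 counts, or 67.3, 43.8 and 77.6 CPM, the narrowest spread of the genes that were high in the heart. Fabp3 rose at least 4306-fold against the spleen (edgeR adjusted p = 0.0295) and at least 4776-fold against the MLN (0.0218), taking 3 counts per empty library as the floor. Without heart 3 neither call held (edgeR adjusted p = 0.122 and 0.106). Leaving out any other heart or spleen library ended the call against the spleen (0.0594 to 0.111), any other heart or MLN library the call against the MLN (0.0525 to 0.0931), and 2 libraries an organ both (0.117 and 0.108). Direction held each time, since all lymphoid values were 0. Fabp3 shares 81 exon bases with Zcchc17 on the other strand, and whether counting used strand is not given in the sources used here. Zcchc17 was at 89.27 to 274.5 CPM in all 9 libraries while Fabp3 had no count in 6. The pseudogene Fabp3-ps1 had 3, 7 and 16 counts in heart 1, 2 and 3 and none elsewhere.

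Fabp4 (ENSMUSG00000062515, chromosome 3, 10204088 to 10208576, minus strand), the binding protein of fat cells that macrophages and capillaries also make, was at 650.5, 156.6 and 330.9 CPM in heart 1, 2 and 3. The spleen libraries had 2.04, 1.24 and 0.252 CPM and the MLN libraries 0.797, 0.338 and 0.008 CPM. Heart values were far above all others, while the lymphoid organs overlapped. The gene rose 996.3-fold from the MLN, from 0.3808 ± 0.3965 to 379.3 ± 250.5 CPM (log2 9.96, SE 1.78, interval 5.896 to 14.025, edgeR adjusted p = 0.0419). That call ended without heart 3 (0.117) and without each other library (0.0558 to 0.144) except spleen 3 (0.0434), and with 2 libraries an organ (0.0799), at log2 differences of 9.32 to 11.1. Against the spleen, at 1.176 ± 0.8942 CPM, the difference was 8.34 (SE 1.67, interval 4.526 to 12.144) and did not pass (edgeR adjusted p = 0.066). It passed without MLN 3 (0.0308), with both organs fitted alone (0.0296) and with DESeq2 (1.6e-09).

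Fabp5 (ENSMUSG00000027533, chromosome 3, 10012548 to 10016607, plus strand), the epidermal binding protein that T cells and macrophages also make, was at 163.5, 80.4 and 229.1 CPM in heart 1, 2 and 3. It was at 65.7, 35.5 and 14.2 CPM in the spleen libraries and at 128.6, 92.2 and 29.9 CPM in the MLN libraries. Heart exceeded spleen in every library but overlapped the MLN. The differences of 2.03 from the spleen (SE 0.73, interval 0.363 to 3.706, edgeR adjusted p = 0.251) and 0.92 from the MLN (SE 0.71, interval −0.706 to 2.538, 0.663) did not pass. As CPM per kb of the principal transcript, Fabp5 made up 96.3% to 98.1% of the Fabp3, Fabp4 and Fabp5 sum in the spleen libraries and 99.3% to 100% in the MLN libraries. In heart 1, 2 and 3 its share was 17%, 26.3% and 33.4%, that of Fabp4 was 74.6%, 56.5% and 53.1%, and that of Fabp3 was 8.4%, 17.2% and 13.6%. These shares were not tested, since they rest on the same counts.

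Acsl1 (ENSMUSG00000018796, chromosome 8, 46471037 to 46536051, plus strand), which couples fatty acids to coenzyme A, was low in all organs. Its values were 7.16, 22.3 and 19.4 CPM in heart 1, 2 and 3, against 4.33, 18.6 and 14.7 CPM in spleen 1, 2 and 3 and 14.6, 21.3 and 17.4 CPM in MLN 1, 2 and 3. All organs overlapped. The log2 difference was 0.38 from the spleen (interval −1.228 to 1.982, edgeR adjusted p = 0.96) and −0.12 from the MLN (interval −1.728 to 1.478, 0.975). Exons of the antisense model Gm45244, at no more than 0.8784 CPM, share 1039 bases with it.

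Cpt1a (ENSMUSG00000024900, chromosome 19, 3322334 to 3385733, plus strand), the rate-limiting step of mitochondrial fatty acid entry, was at 71.4, 60.2 and 146.7 CPM in heart 1, 2 and 3. It was at 37.9, 58.4 and 140.8 CPM in the spleen libraries and at 46.1, 66.0 and 132.6 CPM in the MLN libraries. In every organ library 3 was highest, at 132.6 to 146.7 CPM, and the organ means of 92.77 ± 47.0, 79.03 ± 54.47 and 81.57 ± 45.33 CPM lay closer together than the libraries within an organ. The difference was 0.23 from the spleen (SE 0.63, interval −1.21 to 1.672, edgeR adjusted p = 0.977) and 0.19 from the MLN (interval −1.255 to 1.626, 0.955). The intervals leave room for a change of over 2-fold in either direction.

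Acadl (ENSMUSG00000026003, chromosome 1, 66830839 to 66863277, minus strand), the long-chain acyl-CoA dehydrogenase that opens β-oxidation, was at 335.8, 626.7 and 309.9 CPM in heart 1, 2 and 3. The spleen libraries had 221.1, 280.0 and 238.5 CPM and the MLN libraries 381.2, 211.9 and 263.9 CPM. Heart values were above all spleen values and overlapped the MLN. Differences were 0.78 from the spleen (SE 0.38, interval −0.084 to 1.649, edgeR adjusted p = 0.422) and 0.57 from the MLN (SE 0.38, interval −0.294 to 1.434, 0.576). Hadha (ENSMUSG00000025745, chromosome 5, 30118304 to 30155162, minus strand), the α subunit of the mitochondrial trifunctional protein, was at 94.1, 54.6 and 76.3 CPM in heart 1, 2 and 3. It was at 33.8, 42.8 and 60.2 CPM in the spleen libraries and at 31.1, 51.0 and 43.5 CPM in the MLN libraries. Heart values were above all MLN values and overlapped the spleen only through heart 2 and spleen 3. The difference was 0.72 from the spleen (SE 0.40, interval −0.196 to 1.629, edgeR adjusted p = 0.526) and 0.84 from the MLN (SE 0.40, interval −0.074 to 1.754, 0.363). Hadha shares 75 exon bases with Garem2 on the other strand, which had 31 counts in heart 1 and none elsewhere.

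Pparg (ENSMUSG00000000440, chromosome 6, 115360951 to 115490399, plus strand), the nuclear receptor of the set, was by mean the lowest of the 10 genes in the heart, at 7.73, 3.50 and 7.68 CPM in heart 1, 2 and 3. It was at 1.92, 0 and 1.45 CPM in the spleen libraries and at 0, 2.63 and 0 CPM in the MLN libraries. Heart values were above every lymphoid value, although 3 of the 6 lymphoid libraries had no count and the others were at 1.45 to 2.63 CPM, close under the lowest heart library. The difference was 2.49 from the spleen (SE 2.89, interval −4.1 to 9.077, edgeR adjusted p = 0.894) and 2.85 from the MLN (SE 2.93, interval −3.839 to 9.531, 0.785), and both intervals span 0 by a wide margin. All MLN counts of Pparg lay in MLN 2, and without it the difference from the MLN was a lower bound of 8.92 (edgeR adjusted p = 0.27).

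**Figure D2:**
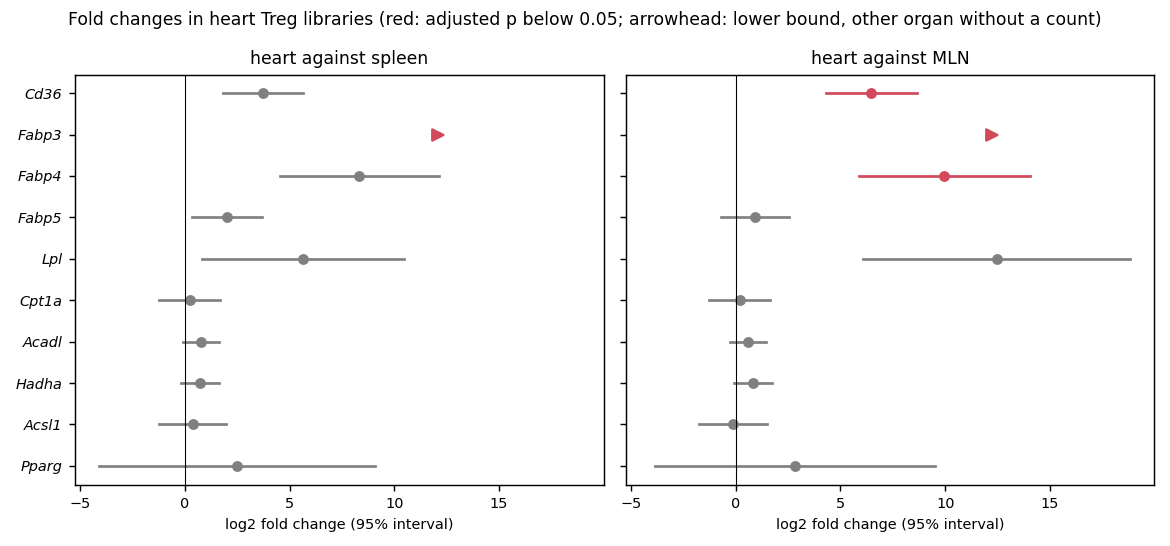
Log2 difference of each gene for heart against spleen and heart against MLN, with 95% intervals from the edgeR fit, called genes in red, and an arrowhead at the lower bound for Fabp3, which had no count in the lymphoid organs. Cd36, Fabp4 and Lpl lie to the right of 0 with their whole interval in both comparisons, and the intervals of Acsl1, Cpt1a, Acadl, Hadha and Pparg cross 0 in both.

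Against the spleen 1 of the 10 genes was called, Fabp3, higher in the heart, and 0 lower. Of all genes tested 0.614% were called higher. Heart libraries were above all spleen libraries for 7 of the 10, where 12.4% of all genes were, and 5 of the 10 had an unadjusted edgeR p below 0.05, where 13.6% of all genes had one. The median log2 difference of the 10 genes was 2.26, and that of all genes was 0.025. Fabp3 entered the heart medians at its lower bound, and Fabp3 and Lpl passed the filter on low counts only through the heart libraries. The 10 genes were chosen with earlier results of these data known, so the shares and medians here are descriptions and not a test. Against the MLN 3 of the 10 were called higher, Cd36, Fabp3 and Fabp4, where 1.1% of all genes were, and 6 of 10 had no overlap, where 14.9% of all genes did. The median there was 1.88, against 0.122 over all genes. With both organs fitted alone 2 of the 10 were called against the spleen (292 of all genes) and 4 against the MLN (548 of all genes), and with 2 libraries an organ 0 in each. Between MLN and spleen 0 of 10 were called by edgeR (0% of all genes), 2 had an unadjusted p below 0.05, as did 5.75% of all genes, and DESeq2 called these 2, Cd36 and Lpl, among 785 genes in all. For these same 2 genes every MLN library was below every spleen library, as it was for 4.56% of all genes. The median of the 10 there was −0.12, and the intervals of Acsl1, Cpt1a, Acadl and Hadha all spanned 0.

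Per kb of principal transcript, the scale on which genes can be set beside each other, Cd36 led in the heart at 934.4 ± 963.5 CPM per kb, before Fabp4 at 423.4 ± 279.6 and Acadl at 221.4 ± 91.81. Fabp5 followed at 159.7 ± 75.47 and Fabp3 at 76.43 ± 21.08. Cpt1a, Hadha, Lpl, Acsl1 and Pparg were at 21.49, 18.67, 9.952, 4.18 and 3.568 CPM per kb. The gaps from Fabp5 to Fabp3, from Fabp3 to Cpt1a, from Hadha to Lpl and from Lpl to Acsl1 exceeded the SD of both neighbours, and the other gaps in this order did not. In both lymphoid organs Acadl led instead, at 128.7 ± 15.82 CPM per kb in the spleen and 149.1 ± 45.27 in the MLN. Next came Cd36 in the spleen (69.9 ± 35.66) and Fabp5 in the MLN (84.69 ± 50.59), while Fabp3, Fabp4, Lpl and Pparg were at 1.312 CPM per kb or less on average. By mean, a dehydrogenase of β-oxidation was thus the most abundant of the 10 transcripts in lymphoid Treg libraries, and the uptake receptor Cd36 in heart Treg libraries. The lead of Cd36 over Fabp4 in the heart was smaller than the SD of Cd36.

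A list of 91 further genes of the same pathway gave 78 that were tested. Gpihbp1, which anchors lipoprotein lipase on capillary endothelium, was the 1 gene called higher in each heart comparison, and 0 were called lower. It was at 80.7, 17.4 and 29.0 CPM in heart 1, 2 and 3, and the only lymphoid library with a count was MLN 1, at 0.014 CPM. Like Fabp3 and Lpl, it passed the filter on low counts only through the heart libraries. It rose at least 2899-fold against the spleen (edgeR adjusted p = 0.0456) and by 13.0 on the log2 scale against the MLN (SE 2.07, 0.0472). Neither call held without heart 3 (0.137 and 0.128). The call against the spleen ended without each of the 9 libraries in turn (0.0507 to 0.158), and that against the MLN held without spleen 2 or spleen 3 only (0.0483 and 0.0434), and both ended with 2 libraries an organ (0.143 each). Gpihbp1 is also 1 of the 18 endothelial markers below. The median log2 difference of the 78 genes was 0.418 against the spleen and 0.527 against the MLN, with 14 higher and 1 lower and with 15 higher and 4 lower at an unadjusted edgeR p below 0.05. Over all genes tested 13.6% and 15.5% had such a p, and 0.614% and 1.1% were called higher.

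**Figure D3:**
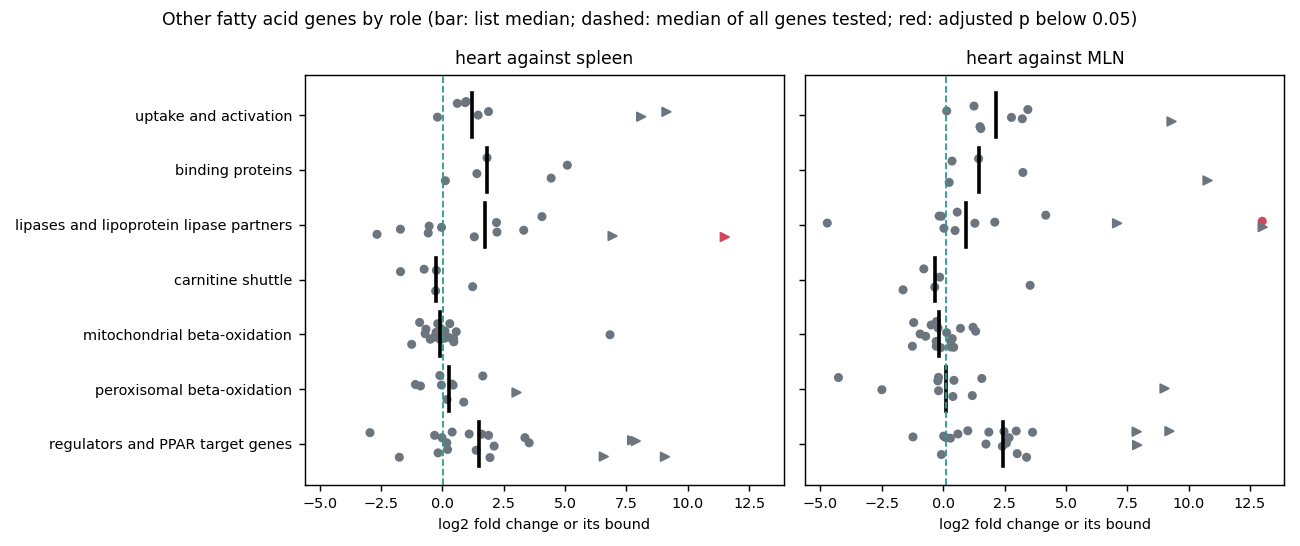
Log2 difference of the other pathway genes by role, 1 point per gene tested, for heart against spleen and heart against MLN, a bar at the median of each role, arrowheads for lower bounds where the other organ had no count, a dashed line at the median of all genes tested, and red for called genes. Medians of uptake and activation, binding proteins, lipases and regulators lie above 0, and those of the carnitine shuttle and mitochondrial β-oxidation lie just below 0.

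By role, the medians against the spleen and the MLN were 1.21 and 2.16 for 8 tested genes of uptake and activation, 1.82 and 1.44 for 5 binding proteins and 1.75 and 0.93 for 12 lipases and partners of lipoprotein lipase. They were 1.49 and 2.44 for 20 regulators and targets of PPAR receptors. Of the oxidation side, 18 mitochondrial genes had medians of −0.08 and −0.16, 5 carnitine shuttle genes −0.28 and −0.35 and 10 peroxisomal genes 0.29 and 0.10. Only Gpihbp1, among the lipase partners, was called in any of these 7 lists. The medians are descriptions, and the roles were not tested against each other.

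Apart from Gpihbp1, which was highest against the spleen and within the 3 highest against the MLN, genes at the ends of the order were not called. The other high genes were the brain binding protein Fabp7, at 16.9, 6.08 and 45.5 CPM in heart 1, 2 and 3 against 2.007 CPM in spleen 2 alone, and the monoacylglycerol lipase Mgll, at 61.6, 243.7 and 21.1 CPM in the heart and no count in the MLN (edgeR adjusted p = 0.57 and 0.529 against the spleen, 0.151 and 0.0902 against the MLN). Among the lowest, the carnitine importer Slc22a5 averaged 16.87 ± 6.527 CPM over heart libraries, 54.98 ± 31.79 CPM over spleen and 52.39 ± 29.28 CPM over MLN libraries (log2 −1.71 and −1.64, edgeR adjusted p = 0.301 and 0.281). The hydroxyacyl-CoA dehydrogenase Hadh averaged 58.56 ± 14.9 CPM over heart and 111.3 ± 34.84 CPM over spleen libraries, every heart library below every spleen library (log2 −0.93, SE 0.45, edgeR adjusted p = 0.421). Acads, the short-chain dehydrogenase, was the other low gene against the spleen (−1.25, 0.958), and Ehhadh of peroxisomes and the hepatic lipase Lipc were low against the MLN (−2.50 and −4.72, 0.772 and 0.641). Chosen after their values were seen, the lipid droplet coat gene Plin2 was at 661.6, 472.0 and 188.6 CPM in heart 1, 2 and 3 and at most 92.56 CPM elsewhere (edgeR adjusted p = 0.145 and 0.126). The arachidonate-preferring synthetase Acsl4, also chosen so, had 225.4 to 251.4 CPM in heart libraries and 67.21 to 111.5 CPM elsewhere (0.074 and 0.0601). In the other direction, every heart library was below every MLN library for Eci1, Hadh and Hadhb of mitochondrial β-oxidation. Their log2 differences from the MLN were −1.25, −1.20 and −0.94 (edgeR adjusted p = 0.107, 0.244 and 0.306). Of the 18 mitochondrial genes, 0 lay above every MLN library, where 14.9% of all genes tested did. The share of all genes below every MLN library is not given here. For Eci1 and Hadhb, every MLN library was also above every spleen library (log2 0.763 and 0.751, MLN minus spleen, not called). Heart and spleen libraries overlapped for both, so there the MLN was the organ that stood apart.

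Sums of several lists of markers of other cells were also higher in heart libraries. In bulk RNA fewer cells of a type and less RNA per cell cannot be told apart. Summed over 15 genes, macrophage and monocyte markers were at 10030, 6327 and 12110 CPM in heart 1, 2 and 3, at 1089 to 2585 CPM in the spleen and at 315.4 to 794.9 CPM in the MLN, and 3 and 7 of them were called higher in heart comparisons with spleen and MLN. The 18 endothelial markers were at 1979, 873.3 and 714.4 CPM in the heart, 250.1 to 289.2 CPM in the spleen and 275.8 to 338.5 CPM in the MLN, with 1 and 2 called higher. The 1 call against the spleen was Gpihbp1, already given above, and it was also 1 of the 2 against the MLN. The 12 fibroblast markers reached 22310, 2826 and 5170 CPM in the heart against at most 16.4 CPM elsewhere, with 6 and 5 called. None of these 3 lists had a marker at 0 in all heart libraries. For these lists and those below, 0.614% and 1.1% of all genes tested were called higher against the spleen and the MLN. Of the 16609 genes, 29 and 47 were called lower. Heart 1 was the highest heart library for Cd36, Fabp4 and the endothelial and fibroblast sums. The macrophage sum, Fabp3 and Fabp5 were highest in heart 3, and Lpl was highest in heart 2.

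Cardiac muscle markers, 17 genes, summed to 199.4, 196.4 and 489.1 CPM in heart 1, 2 and 3, to 13.45 to 53.83 CPM in the spleen and to 5.716 to 9.292 CPM in the MLN, with 2 and 2 called higher. Of these, the oxygen store Mb, like Fabp3, had no count in any lymphoid library, and it was at 61.0, 110.3 and 345.1 CPM in heart 1, 2 and 3. The sarcomere gene Myh6 was at 0, 3.95 and 2.12 CPM. Titin (Ttn), which made up most of the spleen sum, went the other way, at 5.61, 1.66 and 5.64 CPM in heart 1, 2 and 3 and 13.9, 52.6 and 12.9 CPM in spleen 1, 2 and 3. Heart 3 had the highest Mb and the highest Fabp3, and heart 2, second in Mb, the lowest Fabp3. Defining fat cell markers were at or near 0: of 12 genes, 10 had no count in any heart library, among them Adipoq and Plin1, and the sum was 0.370, 0.735 and 0.565 CPM in heart 1, 2 and 3 beside 156.6 to 650.5 CPM of Fabp4. It was 0 to 1.42 CPM in the spleen and 0 to 0.027 CPM in the MLN, where 11 of 12 had no count, with 0 called.

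**Figure D4:**
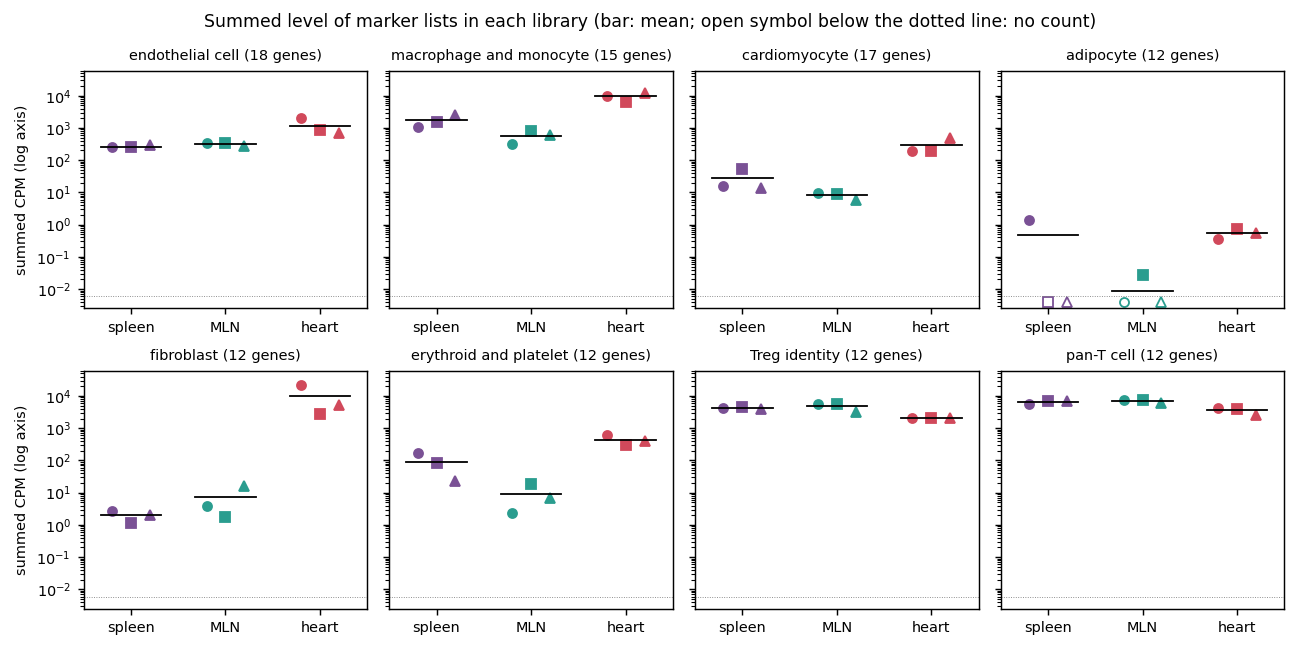
Summed CPM of 8 marker lists in the 9 libraries on a log axis, 1 point per library with a bar at the mean of each organ, and open symbols below the dotted line for no count. Macrophage, endothelial, fibroblast and cardiac muscle sums of all heart libraries lie above all lymphoid libraries, and the fat cell sum is at most 1.42 CPM in any library.

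Of the remaining lists, mast cell genes were at 8233, 5055 and 12.83 CPM in heart 1, 2 and 3 and at most 57.31 CPM elsewhere (0 and 1 called higher). Neutrophil genes were at 732.7 to 3912 CPM in the heart and at most 36.51 CPM elsewhere, and dendritic cell genes at 74.94 to 200.4 and at most 40.97 CPM, none called in either list. Erythroid and platelet genes, with the platelet chemokine Pf4 at 284.5 to 595.1 CPM in the heart, summed to 303.1 to 606.1 CPM there and to at most 166.8 CPM elsewhere (0 called). Pf4 made up most of that heart sum. Of 9 tested members, 4 were below every spleen library in the heart and 2 above. The share of all genes below every spleen library is not given here, so the 4 are a description only. The haemoglobin gene Hbb-bs, for example, averaged 1.012 CPM in heart and 31.18 CPM in spleen libraries. B cell genes summed to 3113 to 6204 CPM in the heart, 9292 to 15140 CPM in the spleen and 2171 to 13310 CPM in the MLN, overlapping the MLN, with 3 called lower in each comparison. Cd74, which other antigen-presenting cells also make, held 3052, 5769 and 6132 CPM of the heart sums, while the B cell receptor gene Cd79a was at 1.93, 0.212 and 0 CPM in heart 1, 2 and 3 and at 110.2 CPM or more elsewhere. Treg identity genes summed to 2021 to 2102 CPM in the heart, 3959 to 4680 CPM in the spleen and 3236 to 5728 CPM in the MLN (1 and 2 of 12 called lower), and pan-T genes to 2596 to 4118, 5515 to 7105 and 5893 to 7475 CPM (0 of 12 called). Mitochondrially encoded transcripts, 13 genes that bear on RNA quality, overlapped between organs at 3475 to 15690, 2497 to 9064 and 4957 to 8842 CPM. The part of other cells in the levels of Cd36, Fabp3, Fabp4, Lpl and Pparg was not tested.

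Likeness of pattern was measured as Pearson's r of log2(CPM + 1) over the 9 libraries, which share organ, depth and amplification, among 7801 genes with a mean of at least 10 CPM. Nearest to Cd36 were the macrophage glycoprotein Cd68 (r = 0.968), the Fc receptor γ chain Fcer1g (0.958) and the growth factor Igf1 (0.957). Fabp4 was nearest to the chemokine Cxcl1 (0.995), the myeloid lipid receptor Trem2 (0.992) and the neurotrophin Ntf3 (0.992). Cd68 and Trem2 are also on the macrophage list. Lpl was nearest to the matrix protein Sparc (0.993), Gpx3 and Gfra3 (both 0.992). Fabp3 was nearest to Abca8a, Tjp1 and Lpar1, all with r rounding to 1 and no count in the 6 lymphoid libraries. Pparg was nearest to Milr1 (0.946), Cd300ld (0.942) and Myof (0.937), and Fabp5 to Bcl2a1a (0.965), Samsn1 (0.957) and Nostrin (0.941).

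The nearest genes of the activation and oxidation genes were different ones. Cpt1a was nearest to Nipbl (0.913), Hivep3 (0.911) and Ubap1 (0.891), Acadl to Rptor (0.9), Gadd45b (0.869) and Pgap2 (0.866), Acsl1 to Rpp14 (0.905), Map3k4 (0.896) and Mettl6 (0.887), and Hadha to Ppic (0.946), Cpeb2 (0.937) and Aif1 (0.934). Among the 10 genes themselves, r was 0.99 between Fabp3 and Fabp4, 0.96 between Fabp3 and Lpl and 0.92 between Cd36 and Fabp4. Acsl1 and Cpt1a stood apart from these, with r to Cd36 of −0.33 and −0.04 and to Fabp4 of −0.08 and 0.11. Hadha did not, with r of 0.67 to Cd36, 0.75 to Fabp4 and 0.77 to Lpl. Acadl lay between, with r of 0.45, 0.58 and 0.66 to the same genes. With 3 libraries an organ, a gene that is high in the heart alone gives a high r with any other such gene.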

How the data were processed

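RNA sequencing of sorted Tregs gave 9 libraries. What the authors deposited are raw counts of reads for each gene and library, neither normalized nor pooled. Per the submitters' processing notes, CASAVA 1.8.2, HISAT2 and HTSeq 0.6.0 were used with mm10. Neither strand option nor annotation release is given in those sources. All columns of counts were used, and 0 were left out. Of 49510 gene identifiers, 49412 matched GENCODE vM21 (GRCm38, the same assembly as mm10), which gave coordinates and principal transcript lengths.

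Genes were kept by edgeR 4.0.16 (R 4.3.3) with its filter at 10 counts and a total of 15. Scaling was by trimmed mean of M-values. All 9 libraries entered a single quasi-likelihood fit with organ as its factor (6 residual degrees of freedom). The standard error was derived from the F statistic, and intervals are 95%. The median biological coefficient of variation was 101.5%. Against a group with no count a fold is a lower bound from a floor of 3 counts per library (0.0104 to 0.0193 CPM), which covers counting error only, since amplified reads without molecular identifiers are not independent molecules. Within organs, all 9 pairs of libraries differed beyond sampling noise. The scripts were tested on simulated data.

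Alternatives were DESeq2 1.42.0, relative log expression scaling, no filter, both organs fitted alone, a block on the replicate number and leaving out each library. Another alternative, chosen after seeing the data, used 2 libraries an organ, without spleen 3, MLN 3 and heart 2. The members, the 7 pathway lists and the 13 marker lists were chosen with earlier results of these data known. The 10 members are all named. Of the 91 pathway genes, those called and, per heart comparison, the 3 highest and the 3 lowest with at least 10 CPM in the higher organ are named, and for likeness the 3 nearest genes. Plin2, Acsl4, Eci1 and Hadhb were named after their values were seen.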

Additional observations from a re-analysis of the deposited data

How the results depend on the processing

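Over 29 results of the 10 genes and 15 alternatives, 431 values were computed, of which 369 kept direction and side of the threshold, 32 lost the call, 10 gained one and 20 changed sign. With DESeq2, genes changed numbered 1885 against the spleen (131 in edgeR), 2199 against the MLN (230) and 785 between the lymphoid organs (0), and members called 4, 4 and 2. With both organs fitted alone, the counts of genes were 292 and 548, with 2 members called against the spleen, and 92.8% of calls against the spleen were higher in the heart, compared with 77.9% in the fit of all 9 libraries. Without heart 1 the share higher was 10% against the spleen (1 higher, 9 lower) and 45.8% against the MLN (11 and 13), compared with 79.6% there in the fit of all 9. Using 2 libraries an organ left 3 and 4 genes and 0 members. Leaving out 1 library gave 0 to 122 genes and 0 to 2 members against the spleen, and 0 to 249 genes and 0 to 4 members against the MLN. Relative log expression scaling moved the median of all genes against the MLN from 0.122 to 0.218. The cause of these differences was not tested.

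With a replicate block, 0 genes and 0 members were called in every comparison. The replicate numbers were not shown to pair samples: deviations of same-numbered samples correlated at −0.21 to 0.22 over 9 pairs, with 4 over 0.1.

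Pparg against the MLN moved from 2.85 to 8.92 without MLN 2 and to 6.13 with the replicate block. Signs changed only for differences that were not called. With 1 library left out, Cpt1a ranged from −0.265 to 0.947 against the spleen, −0.31 to 0.725 against the MLN and −0.494 to 0.762 between MLN and spleen. Acsl1 ranged from −0.0311 to 0.796 against the spleen and from −0.418 to 0.233 against the MLN. Between MLN and spleen, Acadl ranged from −0.0512 to 0.388, Hadha from −0.298 to 0.13 and Pparg from −6.43 to 0.278. There Cpt1a was also −0.000392 with relative log expression scaling and −0.000395 with DESeq2, and with 2 libraries an organ Hadha was 0.0886 and Pparg 0.441. At 156194012 counts or more per library, a gene without a count could still stand at up to 3 counts per library.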

Other observations

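Hadha and Hadhb, which encode the α and β subunits of the mitochondrial trifunctional protein, differed in ratio between all 3 organs. This pair was chosen after its values were seen. Hadhb was at 89.67, 42.61 and 47.39 CPM in heart 1, 2 and 3, at 50.16, 80.94 and 73.65 CPM in spleen 1, 2 and 3, and at 121.4, 126.2 and 96.98 CPM in MLN 1, 2 and 3. The ratio of Hadha to Hadhb CPM was 1.05, 1.28 and 1.61 in heart 1, 2 and 3, above every spleen library (0.675, 0.529 and 0.818) and every MLN library (0.257, 0.404 and 0.449). Every MLN library was also below every spleen library, so the difference was not particular to the heart. The mean log2 ratio was 0.372 ± 0.309 in the heart, −0.592 ± 0.315 in the spleen and −1.475 ± 0.429 in the MLN (SD, n = 3 each). No test is given, since the pair was chosen for this difference. CPM is not per length, so the ratio compares organs and does not say which subunit was more abundant. Hadhb itself was not called in either heart comparison.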
